A study of Mus musculus with 19 samples.

Results

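T cell and natural killer (NK) cell genes were followed through libraries of sorted central nervous system cells as a measure of the lymphocyte RNA that each sorted population carried. The 10 genes listed for this purpose were Cd3d, Cd3e, Cd3g, Lck, Cd2, Thy1, Ms4a4b, Cd52, Nkg7 and Ltb, matched to the deposited tables by symbol with letter case ignored. Of these, 9 were found in at least 1 table, among 6842 distinct gene names over the 3 tables, and Cd3e was in no table. The monocyte table held 9 of them among 3776 genes, that of microglia 6 (Cd3d, Cd3g, Cd2, Ms4a4b, Cd52 and Nkg7) among 3067, and that of astrocytes 5 (Cd3d, Cd3g, Lck, Ms4a4b and Cd52) among 6376. The genes present in all 3 tables were 4, namely Cd3d, Cd3g, Ms4a4b and Cd52.

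The study asked how Xbp1 in astrocytes, a transcription factor gene of the unfolded protein response, bears on gene expression in brain and spinal cord cells in EAE (experimental autoimmune encephalomyelitis), which models multiple sclerosis in mice. All groups were wild-type C57Bl/6 females aged 85 days (P85) that received a lentivirus in the brain and then EAE, by injection of MOG35-55 (25 µg), a peptide of myelin, with complete Freund's adjuvant. The lentivirus carried GFP and a hairpin RNA under the Gfap promoter, a promoter used by astrocytes, and the hairpin was aimed at Xbp1 in shXbp1 mice and had no target in shScrmbl mice. Monocytes (2 shXbp1 and 2 shScrmbl libraries), microglia (3 and 4) and astrocytes (4 and 4) were sorted by flow cytometry from 1 central nervous system per mouse, and transcripts were counted at their 3′ ends, which gave 19 libraries. The antibodies used for sorting are not named in the labels, nor is it said whether equally numbered libraries of the sorted populations share a mouse. No library of sorted lymphocytes and no library of mice without EAE was analysed here.

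In EAE, T cells primed against myelin enter the brain and spinal cord together with monocytes, so lymphocytes and myeloid cells lie side by side in the tissue that is taken apart for sorting. The T cell receptor signals through the CD3 chains, which Cd3d, Cd3e and Cd3g encode, and through the kinase Lck. CD2 is an adhesion receptor of T and NK cells, Thy1 a surface glycoprotein of mouse T cells that neurons also make, and Ms4a4b a membrane protein of mouse T cells. Cd52 encodes a small surface glycoprotein of lymphocytes that monocytes and macrophages also make, Nkg7 a granule protein of cytotoxic T and NK cells, and Ltb the lymphotoxin beta subunit, a ligand of the tumour necrosis factor family.

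Cd3d and Cd3g are neighbours on mouse chromosome 9, transcribed away from each other, with annotated starts 1355 bases apart (GRCm38). Cd3d lies at chr9:44981786-44987339 on the plus strand and Cd3g at chr9:44969572-44980431 on the minus strand. Nkg7 lies at chr7:43437073-43438249 on the plus strand. Promoter windows of 300 bases, from 250 bases before to 50 after the start that RefSeq gives, are shown for these 3 genes because their values in shXbp1 and shScrmbl libraries of monocytes and microglia are described most closely, although none passed the test. For Nkg7 the RefSeq start lies inside the GENCODE gene, downstream of the first base given here. Sequences are from RefSeq (GRCm38.p6), written 5′ to 3′ on the gene's strand, with any match to a RUNX, ETS or TATA motif in capitals; Cd3d is at chr9:44981536-44981835 (plus), Cd3g at chr9:44980382-44980681 (minus) and Nkg7 at chr7:43436888-43437187 (plus).
Cd3d: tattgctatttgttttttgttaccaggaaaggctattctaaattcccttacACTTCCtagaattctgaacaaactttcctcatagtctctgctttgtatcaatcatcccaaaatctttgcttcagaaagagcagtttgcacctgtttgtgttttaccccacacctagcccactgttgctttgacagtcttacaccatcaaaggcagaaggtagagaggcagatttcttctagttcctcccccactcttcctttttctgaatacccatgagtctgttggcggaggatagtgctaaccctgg
Cd3g: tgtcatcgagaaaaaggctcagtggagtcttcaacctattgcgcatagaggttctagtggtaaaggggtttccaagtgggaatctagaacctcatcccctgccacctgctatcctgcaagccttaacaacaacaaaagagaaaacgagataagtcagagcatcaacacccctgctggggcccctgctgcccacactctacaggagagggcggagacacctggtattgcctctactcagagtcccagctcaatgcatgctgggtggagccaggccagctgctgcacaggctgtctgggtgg
Nkg7: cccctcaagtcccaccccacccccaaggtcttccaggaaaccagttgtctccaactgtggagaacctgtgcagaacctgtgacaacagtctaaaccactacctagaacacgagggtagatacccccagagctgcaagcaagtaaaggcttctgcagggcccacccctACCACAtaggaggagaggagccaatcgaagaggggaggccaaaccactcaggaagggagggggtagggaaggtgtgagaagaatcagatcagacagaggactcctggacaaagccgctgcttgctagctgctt

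The RUNX motif was searched as TGTGGT, the ETS motif as GGAAGT and the TATA box as TATAAA, each on both strands, and none of them contains another. RefSeq promoters were matched for 7 of the 10 genes (Cd3d, Cd3e, Cd3g, Lck, Ms4a4b, Nkg7 and Ltb), and not for Cd2, Thy1 and Cd52. The Cd3d window held 1 ETS match, the Nkg7 window 1 RUNX match, and the Cd3g window none of the 3 motifs. Over the 7 windows the ETS letters were found in 4 (Cd3d, Cd3e, Lck and Ms4a4b), the RUNX letters in 2 (Lck and Nkg7) and the TATA letters in 1 (Ms4a4b). Among all 32851 promoter windows of the same length, 23.8% held the ETS letters, 16.8% the RUNX letters and 13.6% the TATA letters. A match describes the letters in the window only.

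The other genes are spread over the genome. Cd2 lies at chr3:101275899-101287939 (minus), Lck at chr4:129548344-129573641 (minus), Cd52 at chr4:134082448-134095082 (minus), Thy1 at chr9:44043384-44048579 (plus), Ms4a4b at chr19:11443553-11467055 (plus) and Ltb at chr17:35194439-35196320 (plus). Cd52 overlaps Crybg2 on the opposite strand, and the labels do not say whether counting used strand. Of the 31-base words in the last 500 bases of Ms4a4b transcripts, 8.65% were shared with Ms4a4c or Gm8369, so some Ms4a4b counts may belong to those copies. Ms4a4c is itself among the monocyte and macrophage genes listed for this report, and how many counts this concerns was not tested. The shared portion was 0.602% for Cd3d, 0.325% for Thy1 and 0 for the others.

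The deposited values, a normalized signal, were whole counts times a fixed step for each library, and the counts recovered from them totalled 15654 to 112676 per monocyte library, 10039 to 122002 per microglia library and 32842 to 302003 per astrocyte library. At these depths 3 counts, the limit that a count of 0 allows, were worth 26.6 CPM (counts per 1000000 recovered counts) in the deepest monocyte library and 299 CPM in the shallowest microglia library. All 10 listed microglia genes were in the microglia table and made up 0.503% to 1.29% of its counts, and 13 of 14 monocyte and macrophage genes made up 0.799% to 2.21% of monocyte counts. Of 12 astrocyte genes, 10 were in the astrocyte table, at 0.0444% to 0.111% of counts, and Gfap and Ntsr2 were not in it. All 10 microglia genes were also in the astrocyte table, at 0.125% to 0.247% of counts. In each of the 8 astrocyte libraries their summed share was larger than that of the listed astrocyte genes, but in most of them this rested on Sparc. Sparc had the most counts of the microglia genes there, 615. In astrocyte shXbp1 replicate 2 it gave 145 of their 352 counts, beside 238 counts of astrocyte genes. Without Sparc the astrocyte genes had the larger share in most astrocyte libraries. The exceptions were shScrmbl replicate 2 and, narrowly, shXbp1 replicate 1. In shScrmbl replicate 2 Sparc gave 166 of 745 counts of microglia genes, beside 134 counts of astrocyte genes. In shXbp1 replicate 1 it gave 42 of 102, beside 59. Of 14 monocyte and macrophage genes, 7 were in the astrocyte table, at 0.0437% to 0.405% of counts. In microglia libraries monocyte and macrophage genes made up 0.428% to 2.23% of counts, a range that overlapped that of monocyte libraries and lay above that of astrocyte libraries. Xbp1 itself had 31.2 to 79.7 units of signal in shXbp1 astrocytes and 20.1 to 79.9 in shScrmbl astrocytes, so these few counts did not separate the viruses.

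Monocyte libraries had the largest share of counts from the listed genes, in sums over unlike numbers of genes that include Cd52. The 9 genes together made up 0.747% and 0.705% of all counts in the shXbp1 monocyte libraries and 0.671% and 0.493% in the shScrmbl monocyte libraries. In microglia the 6 genes of that table made up 0.1195%, 0.188% and 0.189% of counts in shXbp1 libraries and 0.184% to 0.263% in shScrmbl libraries. In astrocytes the 5 genes of that table made up 0.0152% to 0.0253% in shXbp1 libraries and 0.00992% to 0.0507% in shScrmbl libraries. In sorted bulk cells fewer lymphocytes and less RNA per lymphocyte cannot be told apart.

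The tables differ in which genes they list, so the cell types were set side by side on Cd52, Cd3d, Cd3g and Ms4a4b over the counts of the 2606 genes that all tables hold. On this footing the genes made up 0.450% ± 0.0769 of counts in monocytes (SD, n = 4), 0.191% ± 0.0498 in microglia (n = 7) and 0.0287% ± 0.0148 in astrocytes (n = 8). The ranges over libraries were 0.347% to 0.532% in monocytes, 0.124% to 0.267% in microglia and 0.00971% to 0.0533% in astrocytes, and they did not overlap. The mean was 2.36 times as high in monocytes as in microglia and 6.66 times as high in microglia as in astrocytes. The tables were normalized separately, so no test was made between cell types, and these levels are descriptions.

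**Figure D1:**
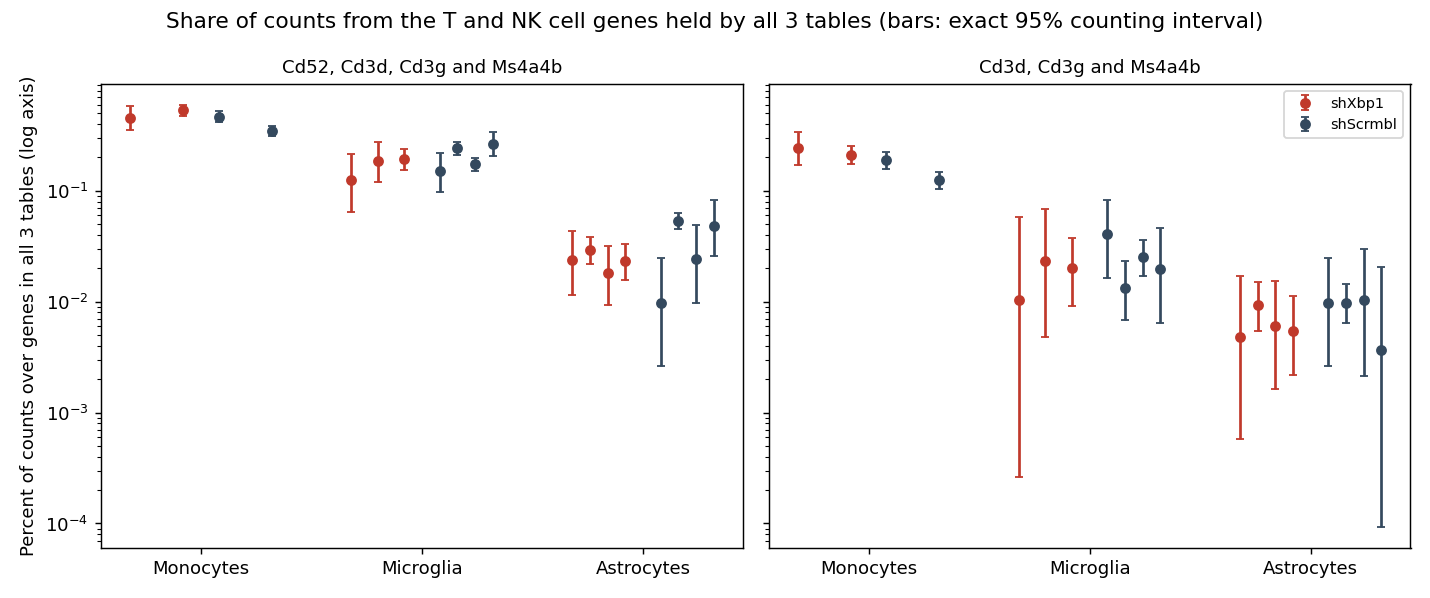
Percent of counts over the genes held by all 3 tables (log axis) that came from Cd52, Cd3d, Cd3g and Ms4a4b together (left) and from Cd3d, Cd3g and Ms4a4b (right), with 1 point per library and exact 95% counting intervals; shXbp1 libraries stand left of shScrmbl libraries in each cell type. Monocytes lie above microglia in both panels, while the distance between microglia and astrocytes is 6.66-fold with Cd52 and 2.95-fold without it.

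Leaving Cd52 out changed the spacing of the cell types. Cd3d, Cd3g and Ms4a4b together made up 0.193% ± 0.0506 of the shared counts in monocytes (SD, n = 4), 0.0218% ± 0.00978 in microglia (n = 7) and 0.00740% ± 0.00268 in astrocytes (n = 8). The mean was now 8.84 times as high in monocytes as in microglia and 2.95 times as high in microglia as in astrocytes. The lowest microglia library, at 1 count of 9670 or 0.0103% (exact 95% interval 0.000262% to 0.0576%), was level with the highest astrocyte library, at 3 counts of 29026 or 0.0103% (0.00213% to 0.0302%). These 2 libraries did not differ beyond counting error, on too few counts to set the cell types apart. Pooled over libraries, each of the 3 genes was higher in microglia than in astrocytes. The ratios were 3.78 for Cd3d (2.18 to 6.63), 2.71 for Cd3g (1.34 to 5.46) and 2.29 for Ms4a4b (1.11 to 4.65), with exact 95% intervals of counting error. The library ranges overlapped for Cd3g and Ms4a4b and not for Cd3d.

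Cd52 behaved apart from the CD3 chains. Monocytes held 623 Cd52 counts against 294 counts of Cd3d and Cd3g, a ratio of 2.12 (exact 95% interval 1.84 to 2.44), with single libraries between 0.968 and 2.43. Microglia held 574 against 51, a ratio of 11.3 (8.44 to 15.3), with single libraries between 3.80 and 23. Astrocytes held 206 against 44, a ratio of 4.68 (3.37 to 6.64), with single libraries between 0 and 12. The microglia libraries all lay above all monocyte libraries in this ratio, and the astrocyte libraries overlapped both.

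**Figure D2:**
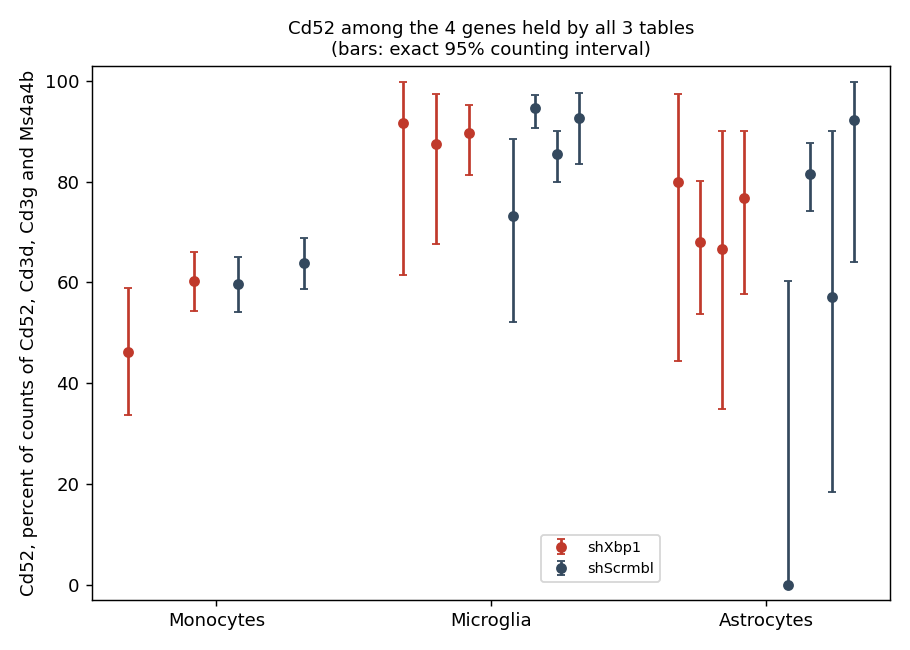
Cd52 counts as a percent of the counts of Cd52, Cd3d, Cd3g and Ms4a4b (vertical axis) in every library of each cell type, with exact 95% counting intervals; shXbp1 libraries stand left of shScrmbl libraries. The monocyte libraries lie between 46.2% and 63.8% and the microglia libraries between 73.1% and 94.5%, while the astrocyte libraries spread from 0% to 92.3% on few counts.

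The monocyte and macrophage genes, which mark cells that also make Cd52, moved in part with it. Among astrocyte libraries their share was highest in shScrmbl replicate 2, at 0.405% of counts, and that library also had the most Cd52, 381 CPM. Astrocyte shScrmbl replicate 4 was close to it in Cd52, at 365 CPM, with a share of 0.137%. Of the other astrocyte libraries, astrocyte shScrmbl replicate 1 had the lowest share, 0.0437%, and no Cd52 count. In microglia the share was between 0.428% and 2.23%, and 13 of 14 of the genes were in the table. The microglia library with the highest share, shScrmbl replicate 2, had 2231 CPM of Cd52. Microglia shScrmbl replicate 4 had more Cd52, 2401 CPM, at a share of 0.953%. The part that myeloid RNA had in the Cd52 counts was not tested.

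The CD3 chains were present in every monocyte library. Cd3d averaged 701 ± 310 CPM in monocytes (SD, n = 4), 111 ± 59.5 in microglia (n = 7) and 25.8 ± 10.2 in astrocytes (n = 8). It was the only gene of the set besides Cd52 with a count in all 7 microglia libraries, and the only one with a count in all 8 astrocyte libraries. Pooled over libraries, Cd3d was 5.64 times as high in monocytes as in microglia (3.85 to 8.50) and 3.78 times as high in microglia as in astrocytes (2.18 to 6.63); these and the following intervals are exact 95% intervals that cover counting error only. The ranges of the 3 cell types did not overlap for Cd3d, although the lowest microglia library, at 43.1 CPM, was close to the highest astrocyte library, at 39.7.

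Cd3g averaged 662 ± 244 CPM in monocytes, 52.1 ± 80.3 in microglia and 20.5 ± 18.0 in astrocytes. The pooled ratio was 10.3 for monocytes over microglia (6.32 to 17.9) and 2.71 for microglia over astrocytes (1.34 to 5.46). Cd3g had no count in 3 of 7 microglia and 2 of 8 astrocyte libraries, and the ranges of these neighbours overlapped. In monocytes Cd3d and Cd3g each summed to 147 counts of 259295.

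Lck, the kinase next to the receptor, averaged 434 ± 120 CPM in monocytes and 12.96 ± 13.7 in astrocytes, where 5 of 8 libraries held a count. The pooled level was 19.4 times as high in monocytes as in astrocytes (11.95 to 33.0). Cd2 averaged 387 ± 95.2 CPM in monocytes and 57.3 ± 54.9 in microglia, a pooled ratio of 6.63 (3.92 to 11.9). Neither gene overlapped between the cell types that list it.

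Ms4a4b averaged 419 ± 191 CPM in monocytes, 47.9 ± 40.9 in microglia and 14.4 ± 16.9 in astrocytes. Its pooled ratio was 9.02 for monocytes over microglia (5.32 to 16.3) and 2.29 for microglia over astrocytes (1.11 to 4.65), and the microglia and astrocyte libraries overlapped. Cd52 averaged 2388 ± 501 CPM in monocytes, 1641 ± 517 in microglia and 176 ± 132 in astrocytes. The monocyte and microglia libraries overlapped for Cd52, with a pooled ratio of 1.37 (1.23 to 1.54), and both lay above every astrocyte library, microglia by a pooled 7.97 times (6.79 to 9.40).

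Nkg7, the cytotoxic granule gene, averaged 1155 ± 417 CPM in monocytes and 65.6 ± 89.4 in microglia, a pooled ratio of 11.01 (7.48 to 16.8). All 4 monocyte libraries held it, at 595 to 1597 CPM, whereas only 3 of 7 microglia libraries did. Thy1 and Ltb were in the monocyte table alone, where Thy1 ranged from 124 to 639 CPM and Ltb from 0 to 148. Of 12 neuron genes, whose cells also make Thy1, only Snhg11 was in the monocyte table, at 0% to 0.0121% of counts.

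**Figure D3:**
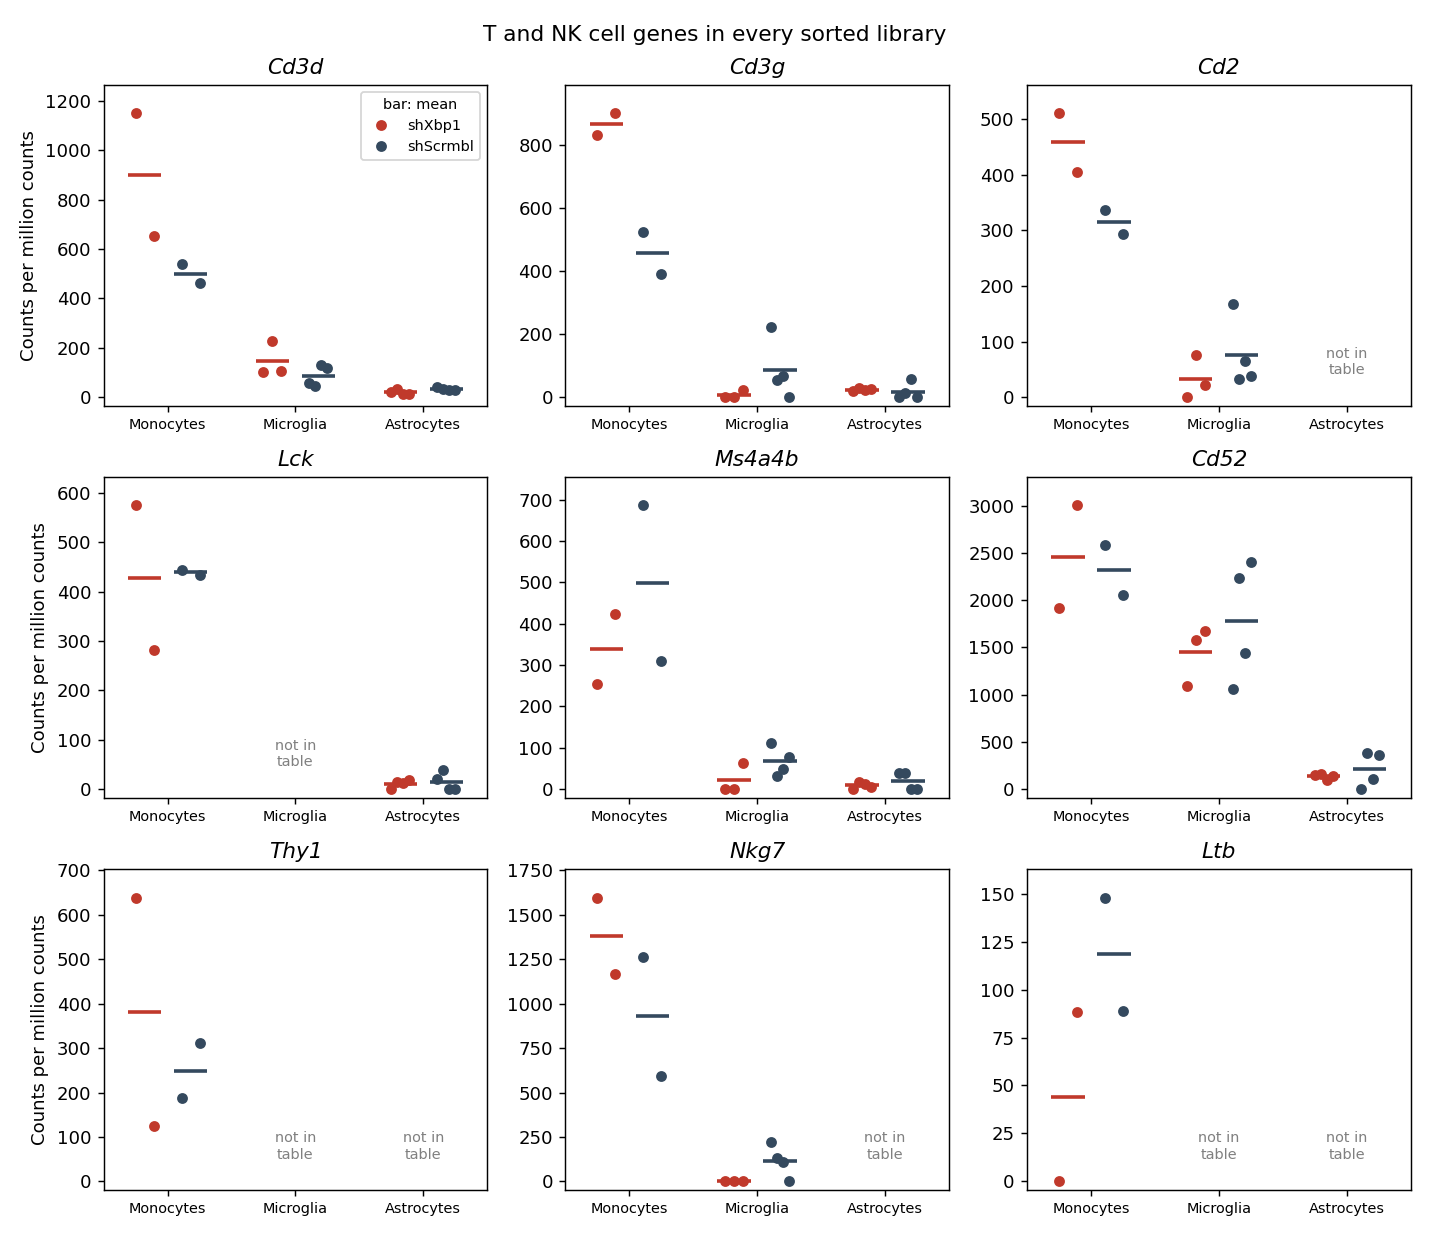
Counts per 1000000 recovered counts (CPM, vertical axis) of each T and NK cell gene in every library, by cell type, with shXbp1 libraries left of shScrmbl libraries and bars at the group means. Monocyte libraries stand highest for each gene except Cd52, whose microglia libraries overlap them. Cd3d, Cd3g and Cd2 are higher in both shXbp1 monocyte libraries than in both shScrmbl monocyte libraries. Of all monocyte genes tested, 34.9% did not overlap between the viruses, with 9.85% higher in shXbp1.

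Other T cell genes were also most abundant in monocytes. Of 35 further T cell genes, 20 were in the monocyte table, 4 in the microglia table (Il7r, Cd8b1, Icos and Gimap4) and 4 in the astrocyte table (Cd8b1, Icos, Il7r and Lef1). They made up 0.221% to 0.402% of counts in monocytes, 0.00775% to 0.0503% in microglia and 0.00282% to 0.0159% in astrocytes, sums over unlike numbers of genes. All tables held Cd8b1, Icos and Il7r, whose medians were 429, 284 and 283 CPM in monocytes. Their medians were 75.1, 55.9 and 75.1 CPM in microglia, and 32.9, 22.3 and 19.7 in astrocytes. Cd8b1, a chain of the co-receptor of cytotoxic T cells, had the most counts of the further T cell genes in monocytes, at 300.2 to 565 CPM, followed by Gimap4, Icos and Il7r. Cd4, Cd8a and Cd247, the zeta chain of the receptor, were among those present in monocytes, and Trac, Trbc1 and Trbc2, the receptor constant regions, were in no table.

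Of 19 NK and cytotoxic genes, 9 were in the monocyte table and only Ccl5 in the other tables. Ccl5, a chemokine of cytotoxic lymphocytes that activated myeloid cells also make, had 2272 to 4663 CPM in monocytes, 391 to 2440 in microglia and 0 to 274 in astrocytes. Ctsw, Gzma and Gzmb, which encode proteins of cytotoxic granules, followed it in monocytes, while Klrb1c, Klrd1, Klrk1 and Ncr1, receptors of NK cells, were in no table. Of 15 B cell and plasma cell genes, 3 were in the monocyte table (Mzb1, Ly6d and Cd79b), at 0.0309% to 0.0639% of counts, 1 in microglia (Cd79b) and 0 in astrocytes. Cd79b was level between them, with a median of 57.6 CPM in monocytes and 64.4 in microglia. Neutrophil genes made up 0.0177% to 0.0874% of counts in monocytes, 0.0450% to 0.149% in microglia and 0.0101% to 0.0397% in astrocytes. Microglia genes made up 0.148% to 0.230% of counts in monocytes and 0.125% to 0.247% in astrocytes, and the 1 astrocyte gene in the monocyte table, Aldoc, 0.00353% to 0.00888%.

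The virus comparison asked whether shXbp1 in astrocytes went with another level of these genes in each population. It was made within each table with limma on log2(signal + 1), with p-values adjusted over all genes of the table and a threshold of 0.05. No T or NK cell gene passed in any cell type. In monocytes limma called 101 of 3775 genes, or 2.68%, of which 100 were lower in shXbp1; 99 of those were at 0 in both shXbp1 libraries. In microglia and astrocytes limma called 0% of 3066 and 6366 genes, with 166 and 298 genes at an unadjusted p under 0.05. edgeR's quasi-likelihood test on the recovered counts called 0.0265% of genes in monocytes, 0.391% in microglia and 0.0157% in astrocytes, and DESeq2 called none, with 21, 62 and 131 genes at an unadjusted p under 0.05. No T or NK cell gene was among the calls of edgeR, and Nkg7 in microglia alone had an unadjusted p under 0.05 by limma or edgeR. The p-values measure the spread between these libraries.

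In monocytes, the CD3 chains and Cd2 were higher in both shXbp1 libraries than in both shScrmbl libraries, without passing the test. Cd3d had a signal of 910 and 775 in shXbp1 monocytes, against 559 and 473 in shScrmbl monocytes. Cd3g had 657 and 1068 in shXbp1 monocytes, against 545 and 401 in shScrmbl monocytes. Cd2 had 404 and 482 in shXbp1 monocytes, against 349 and 300.5 in shScrmbl monocytes. The groups did not overlap for these 3 genes, and they overlapped for the other 6.

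The limma log2 difference was 0.71 ± 0.63 for Cd3d (SE, adjusted p = 0.887), 0.84 ± 0.64 for Cd3g (adjusted p = 0.887) and 0.44 ± 0.67 for Cd2 (adjusted p = 0.887). Groups of 2 libraries that do not overlap were common in this table: 34.9% of all genes tested were apart, made up of 9.85% that were higher and 25% that were lower in shXbp1. Of the T and NK cell genes, 3 of 9 were apart and all 3 were higher. The shXbp1 monocyte library 1 was the shallowest of the 4, with 15654 counts, and rested on 18 counts of Cd3d, 13 of Cd3g and 8 of Cd2. Pooled counts gave a shXbp1 over shScrmbl ratio of 1.55 for Cd3d (1.09 to 2.18), 1.995 for Cd3g (1.42 to 2.80) and 1.38 for Cd2 (0.864 to 2.17).

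The remaining monocyte values overlapped between the viruses. Lck had a signal of 455 and 335 in shXbp1 monocytes, against 461 and 446 in shScrmbl monocytes, where the difference was -0.22 ± 0.66 (limma log2, adjusted p = 0.947). Thy1 had 506 and 147 in shXbp1 monocytes, against 196 and 319 in shScrmbl monocytes, and Ms4a4b had 202 and 502, against 713 and 319. Both genes varied more between libraries of 1 virus than between the viruses.

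Cd52 had a signal of 1517 and 3559 in shXbp1 monocytes, against 2683 and 2103 in shScrmbl monocytes, a limma log2 difference of -0.03 ± 0.60 (adjusted p = 0.989). Nkg7 had 1264 and 1382 in shXbp1 monocytes, against 1314 and 610 in shScrmbl monocytes, a difference of 0.56 ± 0.62 (limma, adjusted p = 0.887). The shXbp1 libraries lay on either side of the shScrmbl range for Cd52 and overlapped it for Nkg7.

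Ltb had a signal of 0 and 105 in shXbp1 monocytes, against 154 and 91.1 in shScrmbl monocytes. These were 0 and 5 counts in shXbp1 libraries and 11 and 10 in shScrmbl libraries, and the shXbp1 library with no count was the shallowest, where 3 counts were worth a signal of 152. The limma log2 difference of -3.54 ± 2.04 (adjusted p = 0.887) rests on that 0, and edgeR on the counts gave -0.72. Without shXbp1 replicate 2, which leaves the library at 0 as the only shXbp1 sample and assumes that it varies like the others, limma gave -6.90 (adjusted p = 0.000113), the only call of a T or NK cell gene under any alternative.

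Over the 9 genes in monocytes the median limma log2 difference was 0.12, beside -0.42 over all 3775 genes, with 5 above 0 and 4 below. By edgeR the medians were 0.15 and -0.17. Further T cell genes had a median of -0.13 (8 above 0, 12 below) and NK and cytotoxic genes 0.53 (6 above, 3 below), and none of them passed by limma or edgeR. NK and cytotoxic genes made up 0.575% and 0.512% of counts in shXbp1 monocytes, against 0.467% and 0.286% in shScrmbl monocytes. Most of these counts were Ccl5, 73 of 90 and 222 of 290 in shXbp1, and 252 of 347 and 256 of 322 in shScrmbl. Without Ccl5 the shares of NK and cytotoxic genes overlapped between the viruses. Monocyte and macrophage genes made up 0.799% and 1.66% in shXbp1 monocytes, against 2.21% and 2.07% in shScrmbl monocytes. Lyz2 gave 61 of 125 and 557 of 940 of these counts in shXbp1, and 1152 of 1644 and 1808 of 2336 in shScrmbl. Without Lyz2 the shares of the viruses overlapped. By limma 6 of the 13 genes were above 0 and 7 below, with a median of -0.45, beside -0.42 over all genes. The part of the lower summed share in the CD3 values was not tested. Of 8 neutrophil genes in monocytes, limma called 1 lower, against 2.68% of all genes, and edgeR called none of the 8. The gene called by limma was Mmp8, named after its values were seen, which was at 0 in both shXbp1 libraries.

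**Figure D4:**
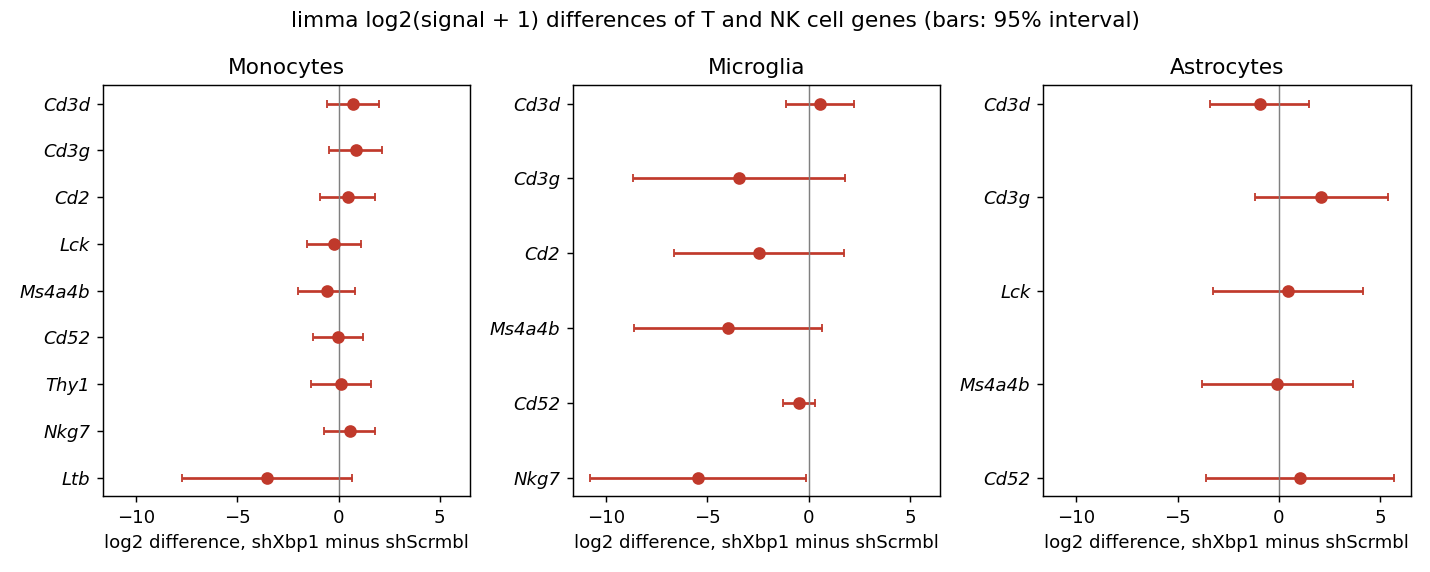
limma log2(signal + 1) difference, shXbp1 minus shScrmbl (horizontal axis), of each T and NK cell gene in monocytes, microglia and astrocytes, with 95% intervals. Intervals are narrowest for genes with many counts, such as Cd52 in microglia at -0.46, and widest for genes with libraries at 0, such as Nkg7 in microglia at -5.47; none passed after adjustment.

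Of the 6 genes in microglia, Nkg7 had the largest difference and was at 0 in every shXbp1 library. It had 0, 0 and 0 counts in shXbp1 microglia, against 4, 12, 13 and 0 counts in shScrmbl microglia. Over the groups this was 0 of 69946 counts in shXbp1 and 29 of 258480 in shScrmbl, at least 2.62-fold lower in shXbp1 when shXbp1 microglia are set at 3 counts in all, the limit that 0 counts allow. The exact 95% interval of the pooled ratio, which also covers the error of the shScrmbl counts, reached from 0 to 0.501. The groups overlapped, since shScrmbl replicate 4 was also at 0. The limma log2 difference, which depends on the pseudocount, was -5.47 ± 2.62 (unadjusted p = 0.045, adjusted p = 0.804), and edgeR gave an adjusted p of 0.155, the lowest over the alternatives that kept the gene. Without shScrmbl replicate 1, 2 or 3, only 2 libraries held a count, and Nkg7 left the fit by the filter on low values. Depth was uneven here: the shXbp1 libraries held 10039, 13321 and 46586 counts, and the shScrmbl libraries 17892, 92765, 122002 and 25821.

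The CD3 chains pointed in different directions in microglia, on few counts. Cd3d had 1, 3 and 5 counts in shXbp1 microglia, against 1, 4, 16 and 3 in shScrmbl microglia, a pooled ratio of 1.39 (0.567 to 3.09) and a limma log2 difference of 0.57 ± 0.82 (adjusted p = 0.848). Cd3g had 0, 0 and 1 counts in shXbp1 microglia, against 4, 5, 8 and 0 in shScrmbl microglia, a pooled ratio of 0.217 (0.00520 to 1.39) and a limma log2 difference of -3.44 ± 2.57 (adjusted p = 0.814). Both counting intervals include 1, and the libraries overlapped for both genes.

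Cd2 had 0, 1 and 1 counts in shXbp1 microglia, against 3, 3, 8 and 1 in shScrmbl microglia, with a pooled ratio of 0.493 (0.0547 to 2.12). Ms4a4b had 0, 0 and 3 counts in shXbp1 microglia, against 2, 3, 6 and 2 in shScrmbl microglia. For Ms4a4b the scale decides the size: the limma log2 difference was -3.98 ± 2.29 (adjusted p = 0.804), while the pooled ratio was 0.853 (0.156 to 3.10) and edgeR gave a log2 difference of -0.40. Both zeros stand in the 2 shallowest libraries.

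Cd52, the gene with most counts, had a signal of 836, 1449 and 1867 in shXbp1 microglia, against 986, 2612, 1643 and 2480 in shScrmbl microglia. The groups overlapped, and the limma log2 difference was -0.46 ± 0.39 (adjusted p = 0.814). None of the 6 genes was apart between the viruses in microglia, where 7.24% of all genes tested were. The median over the 6 was -2.95 by limma and -0.78 by edgeR, beside -0.39 and -0.09 over all genes, with 5 of 6 below 0 by both. Monocyte and macrophage genes made up 0.428% to 1.04% of counts in shXbp1 microglia and 0.715% to 2.23% in shScrmbl microglia. Whether microglia or other cells made these transcripts cannot be told apart in sorted bulk cells. Of the 13 genes present, 2, Cybb and Lyz2, fell in shXbp1 by edgeR, against 0.391% of all genes called. Their edgeR log2 differences were -1.95 (adjusted p = 0.0164) and -1.44 (adjusted p = 0.0383). limma called none of the 13, and DESeq2 no gene of the table. The part of these genes in the Cd52 values was not tested.

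In astrocytes every gene but Cd52 had 12 or fewer counts per library. Cd3d had 1, 7, 1 and 2 counts in shXbp1 astrocytes, against 2, 10, 1 and 1 in shScrmbl astrocytes, and Cd3g had 1, 6, 2 and 4, against 0, 4, 2 and 0. The limma log2 difference was -0.95 ± 1.17 for Cd3d (adjusted p = 0.860) and 2.10 ± 1.58 for Cd3g (adjusted p = 0.824). The chains pointed in different directions, and the libraries overlapped for both.

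Lck had 0, 3, 1 and 3 counts in shXbp1 astrocytes, against 1, 12, 0 and 0 in shScrmbl astrocytes, and Ms4a4b had 0, 4, 1 and 1, against 2, 12, 0 and 0. The shScrmbl library with 12 counts of each, replicate 2, was the deepest of the study with 302003 counts. The limma log2 difference was 0.44 ± 1.78 for Lck and -0.07 ± 1.80 for Ms4a4b, and edgeR gave -1.14 and -1.50, so the sign for Lck depends on the scale.

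Cd52 had a signal of 136, 173, 83.3 and 153 in shXbp1 astrocytes, against 0, 485, 107 and 331 in shScrmbl astrocytes. The shXbp1 libraries were close together inside the wide shScrmbl range. The limma log2 difference was 1.04 ± 1.95 (adjusted p = 0.900), whereas edgeR gave -0.89 (adjusted p = 0.823) and limma without shScrmbl replicate 1, the library with no Cd52 count, gave -0.96. Pooled counts, 75 in shXbp1 and 131 in shScrmbl astrocytes, gave a ratio of 0.464 (0.345 to 0.621), but 115 of the 131 came from shScrmbl replicate 2. None of the 5 genes was apart between the viruses, where 3.16% of all genes tested were. The median over the 5 was 0.44 by limma and -0.89 by edgeR, beside 0.42 and 0.05 over all genes.

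Some genes had a profile over the libraries of a table that closely matched the summed signal of the T and NK cell genes. Likeness was the overlap of the profiles, the sum over libraries of the smaller of both shares, which is 1 for equal profiles, among genes with at least 20 counts. In astrocytes the nearest were C1qb, a complement gene of myeloid cells, at 0.945, Gm17821 at 0.940 and Tyrobp, a myeloid and NK cell adaptor, at 0.936, beside a median of 0.686 over 5777 genes and 8 libraries. In microglia they were Erh at 0.952, Tmem50a at 0.951 and the lysosomal protease gene Ctsd at 0.950, beside a median of 0.766 over 2382 genes and 7 libraries. In monocytes they included Rpl31, a ribosomal protein gene, at 0.986, and Polr1c at 0.981, beside a median of 0.821 over 1856 genes and 4 libraries. In microglia and astrocytes the summed signal was mostly Cd52, as the counts given above show.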

How the data were processed

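RNA of sorted monocytes, microglia and astrocytes was counted at transcript 3′ ends. For every cell type the authors deposited a table of normalized signal values. Tools listed in the submitters' processing notes are limma 3.34.1 and BWA 0.7.10, with build mm10 and no roles, and the scaling and counter are not given in the sources used here. All values above 0 (100%) were whole multiples, within 0.01 count, of 1 step per library, and these recovered counts gave depths, CPM and exact (Clopper-Pearson) 95% intervals, which cover counting error only. Whether counts are reads or molecular identifiers is not given.

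Each table was fitted alone, shXbp1 against shScrmbl, with limma 3.58.1 (trend, robust) in R 4.3.3 on log2(signal + 1), for genes whose signal reached 1 in a number of libraries equal to the size of the smaller group, with Benjamini-Hochberg adjustment over all of them. edgeR 4.0.16 and DESeq2 1.42.0 on recovered counts, a pseudocount of 10, no filter, a replicate block and each library left out were alternatives. Python 3.11.15 was used otherwise. Gene coordinates are from GENCODE on GRCm38.

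All 10 listed genes were named wherever present, up to 4 genes of each marker list by counts, and the 3 nearest genes by profile, 1 of which is not reported here. Members and lists were chosen with earlier results of these data known.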

Additional observations from a re-analysis of the deposited data

How the results depend on the processing

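No T or NK cell gene passed with edgeR, DESeq2, a pseudocount of 10, no filter or the replicate block. Of 100 values under these settings 93 kept their direction and side of the threshold and 7 changed sign, and of 115 values with 1 library left out 100 kept both, 14 changed sign and 1 (Ltb in monocytes, -6.90 without shXbp1 replicate 2) newly passed. Nkg7 in microglia gave no value without shScrmbl replicate 1, 2 or 3, where it missed the filter on low values. The changes of sign in astrocytes were Cd52 (-0.89 by edgeR, -0.86 by DESeq2) and Lck (-1.14 by edgeR, -0.98 by DESeq2 and -0.072 with a pseudocount of 10), and in monocytes Cd52 (0.11 by edgeR, 0.15 by DESeq2). With 1 library left out, log2 differences in astrocytes ranged from -0.96 to 2.01 for Cd52, -0.40 to 1.496 for Lck and -0.99 to 0.91 for Ms4a4b. In monocytes they ranged from -0.65 to 0.58 for Cd52, -0.44 to 0.0045 for Lck, -1.23 to 0.076 for Ms4a4b and -0.76 to 1.01 for Thy1. The cause was not tested. The number of all genes called in monocytes, 101 by limma, was 1 by edgeR, 0 by DESeq2 and 0 with a pseudocount of 10; it was 0 without either shScrmbl library, 486 without shXbp1 replicate 1 and 1163 without shXbp1 replicate 2, where the lone library is assumed to vary like the others. In microglia it was 0 by limma, 12 by edgeR and 0 to 3 with 1 library left out (3 without shScrmbl replicate 1), and in astrocytes 0 by limma and 1 by edgeR. With the replicate block limma called 112 genes in monocytes, 0 in microglia and 0 in astrocytes. Libraries with the same number deviated from their group means with correlations of -0.076 in monocytes. The correlations were -0.002 to 0.058 in microglia and -0.004 to 0.064 in astrocytes. With 2 libraries per virus the monocyte correlations could differ in sign only. The labels do not say what the numbers mean, so these values do not settle whether equal numbers mark a shared batch.

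The share of counts depended on the genes summed. Without Cd52 it averaged 0.480% in shXbp1 and 0.351% in shScrmbl monocytes, 0.0205% and 0.0431% in shXbp1 and shScrmbl microglia, and 0.00623% and 0.00850% in shXbp1 and shScrmbl astrocytes. Without Thy1 too it averaged 0.442% in shXbp1 and 0.326% in shScrmbl monocytes, and the other groups, whose tables lack Thy1, were at the same values. With only the CD3 chains, Cd2 and Lck it averaged 0.265% in shXbp1 and 0.171% in shScrmbl monocytes, 0.0183% and 0.0248% in shXbp1 and shScrmbl microglia, and 0.00533% and 0.00652% in shXbp1 and shScrmbl astrocytes. Over the genes held by all tables, a choice made after seeing the data, monocytes averaged 0.494% in shXbp1 and 0.407% in shScrmbl. Depth limits the microglia and astrocyte values, where a single count equalled 9.33 to 76.0 units of signal in microglia and 4.22 to 27.6 in astrocytes. This held least for Cd52, which still had 0 counts in astrocyte shScrmbl replicate 1 and 11 in microglia shXbp1 replicate 1.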
